A study of Sus scrofa with 21 samples.

Results

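Endometrium from the places where a pig conceptus lies against the uterine wall was compared between day 24 and day 18 after insemination. The comparison used 6 of the 21 arrays of the study, 3 from each day, chosen by their titles alone. All sows were Large White. Pregnant sows were inseminated and killed on day 13, 18 or 24, 3 sows a day, and gave endometrium from attachment sites and from the stretch between them (inter-sites). Sows of the non-pregnant group received inactivated sperm and were killed on day 13. RNA was hybridised to 1-colour Agilent porcine arrays, 3 arrays in each of 7 groups. Levels below are log2 signals minus the 75th percentile of their own array, so a level of 0 equals that percentile, and a level says nothing about 1 gene against another. The labels do not say which arrays share a sow, and no conceptus was sampled as a tissue of its own.

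The pig conceptus does not invade the uterus: the trophoblast attaches to the uterine epithelium, and the placenta that follows is fed by gland and epithelial secretions called histotroph. Around attachment the pig trophoblast secretes interferon gamma and interferon delta, and nearby endometrium expresses genes that interferons induce, such as chemokines, guanylate-binding proteins and parts of the antigen-presentation machinery. Later the chorion makes steroids and prostaglandins of its own, and transport of nutrients, iron and lipid across the attached layers expands.

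The 6 arrays had 63.4% to 70.8% of their 43603 probes well above background and no saturated spot. Across tested probes the 3 day 24 arrays correlated with each other at r = 0.975 to 0.986 and the 3 day 18 arrays at 0.946 to 0.957, so day 18 varied more. At 27 probes that were plainly on or off in the libraries, attachment replicates 1 and 2 had the same states on day 18 and again on day 24 (100% of probes). Replicate 3 matched them at 85.2% on day 18 and 96.3% on day 24. Identical states also occurred between different days: day 24 replicate 3 matched day 13 attachment replicates 1 and 2 at 100%. Equal states therefore do not show a shared sow, and whether replicates 1 and 2 came from different sows is not established by these probes. Results are also given with libraries of the same day and identical states kept as a block (the shared-state block), a setting added after the data were seen. The p-values measure the spread between these arrays.

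Of 30091 probes tested, 1698 (5.64%) passed an adjusted p of 0.05 in limma's moderated test with Benjamini-Hochberg adjustment: 1170 were higher on day 24 and 528 lower. With the shared-state block 558 passed, and with replicates 1 and 2 averaged 496 passed. With libraries of similar states grouped across days, a block that held all 6 arrays together, 2430 passed. Leaving out 1 array mattered most on day 24: 261 passed without replicate 2 and 309 without replicate 3, against 1629 without replicate 1. Leaving out a day 18 array left 1082 to 1519. With a model-based (normexp) background correction 221 passed, 179 higher and 42 lower, and the median difference over all probes moved from about 0 to 0.25. Fitting slide as a block left 393. Of the 68 genes that passed and that the naming rule chose, 35 passed with the shared-state block, 22 without day 24 replicate 2 and 25 without day 24 replicate 3.

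A gene symbol could be given through a RefSeq accession to 2018 tested genes, each read by its brightest probe. Of these, 182 (9.02%) passed the test, 152 higher (7.53%) and 30 lower (1.49%), and 80 (3.96%) passed with the shared-state block. The median log2 difference over all 2018 genes was 0.17, with 1240 differences above 0 and 778 below. The 6 arrays' values did not overlap between the days in 683 genes (33.8%). Among the 97 genes that passed and had more than 1 tested probe, every probe pointed the same way as the brightest in all 97. The named genes that kept their direction and their call in each alternative that tested them were CXCL10, GBP1, GBP2 and UBD among those that fell, and IL6, CRISP3, HMOX1, CBR1, BPI and AQP8 among those that rose. IL6, CRISP3 and BPI were not tested under the filter that asks for every array to be well above background.

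Of 29 measured members of the interferon response list, 8 fell by day 24 and 0 rose, and 5 of the 8 passed with the shared-state block. Over all 2018 named genes 1.49% fell and 7.53% rose, and the list counts here and below stand beside those shares. Differences were below 0 in 27 of the 29, with a median of -0.69. That median was -0.17 without day 18 replicate 1 (5 passed) and -1.12 without day 18 replicate 2 (9 passed), and 4 passed with slide as a block. CXCL10, a chemokine that draws T cells and is induced by interferon gamma, read 7.60, 5.10 and 6.68 on the 3 day 18 arrays and 1.29, 1.23 and 0.83 on day 24. Every day 18 array lay far above every day 24 array, a fall of 40.6-fold (log2 difference -5.34, SE 0.92, adjusted p = 0.0052 in limma). The day 24 levels were within the range of day 13 attachment sites (0.80 to 2.86) and close to non-pregnant endometrium (0.35 to 2.28). CXCL9, which binds the same receptor, read 4.98, 2.68 and 2.69 on day 18 and -0.28, -2.35 and -1.22 on day 24, a 26.6-fold fall (adjusted p = 0.0286, and 0.123 with the shared-state block). CXCL11, the third ligand of that receptor, read -0.09, -1.64 and -2.14 on day 18 and was not well above background on any day 24 array. It was at least 14.3-fold lower on day 24 (adjusted p = 0.00548), a bound set by the lowest reliably detected signal of each day 24 array.

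**Figure D1:**
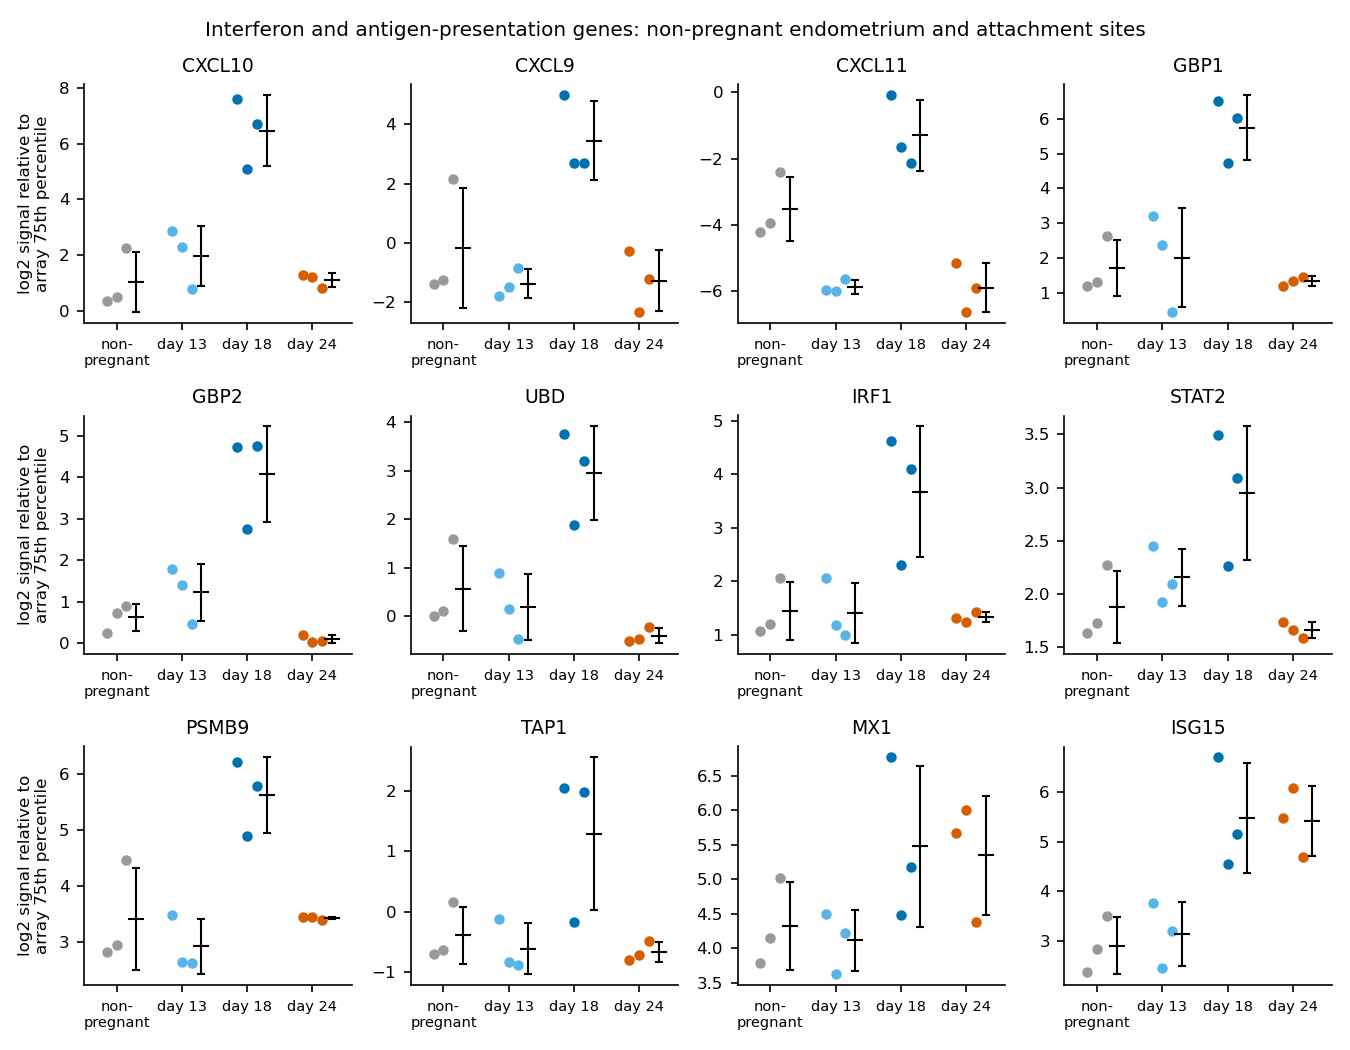
Log2 signal, with each array's 75th percentile set to 0, for 12 interferon and antigen-presentation genes in non-pregnant endometrium and at attachment sites of days 13, 18 and 24. Points are single arrays (3 a group), and the black mark and bar give the group mean and SD. For CXCL10 the day 18 arrays sit between 5.10 and 7.60 and the day 24 arrays between 0.83 and 1.29, while ISG15 and MX1 overlap between the 2 days.

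The guanylate-binding proteins, large GTPases that act against intracellular pathogens, were among the genes that fell. GBP1 read 6.51, 4.72 and 6.01 on day 18 and 1.21, 1.36 and 1.48 on day 24, a 21-fold fall (log2 difference -4.39, SE 0.83, adjusted p = 0.00809). GBP2 read 4.72, 2.74 and 4.76 against 0.20, 0.03 and 0.05, a 15.8-fold fall (adjusted p = 0.00272). UBD, a ubiquitin-like protein also called FAT10, read 3.77, 1.89 and 3.21 against -0.51, -0.45 and -0.22, a 10.2-fold fall (adjusted p = 0.00326). In all 3 genes replicate 2 was the lowest day 18 array and still stood above day 24. IRF1, a transcription factor downstream of interferon gamma, fell 5.08-fold (adjusted p = 0.0197, and 0.0735 with the shared-state block). STAT2, part of the type I interferon signal, fell 2.45-fold (adjusted p = 0.0233, and 0.0829 with that block).

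Other members of the same list did not pass the test, and for ISG15 and MX1 the 2 days overlapped. ISG15, a ubiquitin-like protein induced strongly by type I interferons, read 6.71, 4.56 and 5.17 on day 18 and 5.48, 6.10 and 4.70 on day 24, a log2 difference of -0.05 (SE 0.62). MX1, an antiviral GTPase, read 6.76, 4.49 and 5.18 against 5.67, 6.0 and 4.38, a difference of -0.13 (SE 0.62). For ISG15 the day 24 arrays were all above the day 13 attachment arrays, which read 2.46 to 3.76. IFNG itself, whose transcript the pig trophoblast makes and which T and NK cells make too, read -0.93, 2.26 and -0.49 on day 18 and -3.15, -2.93 and -1.83 on day 24, with adjusted p = 0.117 for a difference of -2.92 (SE 1.08). The groups did not overlap, and replicate 2 was the high one on day 18.

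In antigen presentation, the cutting and loading of peptides onto MHC molecules, 5 of 23 measured members fell and 0 rose. With the shared-state block 0 of the 23 passed in limma, with 17 at an unadjusted p under 0.05, and without single attachment arrays 0 to 9 passed, 0 of them without day 18 replicate 1 or day 24 replicate 2. Differences were below 0 in 21 members and the median was -1.18. PSMB9, a catalytic subunit of the immunoproteasome, read 6.21, 4.90 and 5.79 on day 18 and 3.45, 3.45 and 3.40 on day 24, a 4.59-fold fall (adjusted p = 0.0164). TAP1, a subunit of the pump that carries peptides into the endoplasmic reticulum, read 2.06, -0.18 and 2.0 against -0.80, -0.73 and -0.49, a 3.90-fold fall (adjusted p = 0.0311). PSMB10, another immunoproteasome subunit, fell 3.09-fold and the classical activator subunit PSME1 1.93-fold (adjusted p = 0.0257 and 0.0408). SLA-8, a class I gene of the pig MHC whose family members are alike enough to share signal, fell 2.15-fold (adjusted p = 0.0338), and 1 of its 4 probes passed. The class II gene SLA-DRA differed by -1.25 (SE 0.41) and B2M, the light chain of class I, by -0.97 (SE 0.30), both short of the threshold (adjusted p = 0.08 and 0.0626), although 1 of 7 probes and 1 of 2 probes did pass.

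The same lists were set beside the step from day 13 to day 18 at attachment sites, which uses the same day 18 arrays, so the 2 differences are not independent. In that step 60 of 2018 named genes passed (2.97%), among them 9 of the 29 interferon members (median 1.47) and 12 of the 23 antigen-presentation members (median 1.91). With the shared-state block 4 of the 2018 passed in that step, 0 of the 29 and 1 of the 23 in limma, with 21 of each list at an unadjusted p under 0.05. Without day 18 replicate 1, 1 of the 2018 passed and none in either list (15 and 20 at an unadjusted p under 0.05). Blocking on slide left 4 of the 2018, again none in either list (20 and 20 at that p). CXCL10 differed by 4.47 from day 13 to 18 and by -5.34 from day 18 to 24, GBP2 by 2.85 and -3.98, and PSMB9 by 2.71 and -2.20. In the gene order of the Sscrofa11.1 annotation CXCL10 and CXCL11 are neighbours with CXCL9 close by, GBP1 lies next to GBP2, and PSMB9 next to TAP1. Neighbours did not always move together: IRF1 lies next to IL5, and from day 18 to 24 they differed by -2.35 and 1.37.

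Of 34 measured cytokines and chemokines, 2 rose and 2 fell, against 7.53% and 1.49% of all 2018 named genes. IL6, a cytokine of inflammation and of epithelial repair, read -2.37, -3.79 and -2.85 on day 18 and 2.59, 2.61 and 3.55 on day 24. The 2 groups were separated by almost 5 log2 units, a 60.5-fold rise (log2 difference 5.92, SE 0.62, adjusted p = 0.000184), and all 3 of its probes passed. Day 13 attachment sites (-3.93 to -2.45) and non-pregnant endometrium (-4.91 to -2.72) were at the day 18 level. IL5, a growth factor for eosinophils, rose 2.58-fold (adjusted p = 0.0183, and 0.0613 with the shared-state block). TNFSF10, a death ligand induced by interferons, and IL15, a survival factor for NK cells, fell 3.85-fold and 2.70-fold (adjusted p = 0.0133 and 0.0453), and neither passed with the block (0.0584 and 0.113). LIF, a cytokine of the IL6 family, differed by 1.72 (SE 0.58, adjusted p = 0.0889). None of 23 Toll-like receptor and NF-kB genes passed in limma, with 3 at an unadjusted p under 0.05, and those with the widest differences were TLR8 at -2.47 (SE 1.09) and LBP at 0.86 (SE 0.36).

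Of 30 measured members of the histotroph list, the secreted proteins of the uterus, 9 rose by day 24 and 0 fell, with a median of 1.08, and 5 of them passed with the shared-state block. Leaving out day 24 replicate 2 or 3 left 2 of the 30, and leaving out day 18 replicate 3 or 2 left 3 or 6. OSTN, a small secreted peptide first described in bone and muscle, had the widest difference of all named genes. It read -1.17, -0.85 and -4.08 on day 18 and 6.85, 7.67 and 7.81 on day 24, a log2 difference of 9.48 (SE 2.24, adjusted p = 0.0227). That call was lost with the block (adjusted p = 0.0866) and without day 18 replicate 3 or day 24 replicate 2 or 3. Its inter-site levels on day 24 ranged from -7.24 to 3.57. CRISP3, a cysteine-rich secretory protein of exocrine glands, read -5.53, -3.73 and -5.35 against 1.98, 2.69 and 3.1, a 176-fold rise (adjusted p = 0.00218, and 0.00601 with the block). WFDC2, a small protease inhibitor made by reproductive-tract epithelium, read 5.88, 5.61 and 3.80 against 8.41, 9.16 and 9.08, a 13.8-fold rise (adjusted p = 0.0206). IGFBP3, a carrier of insulin-like growth factors and also the only 1 of 31 growth-factor genes to pass, rose 10.8-fold (adjusted p = 0.0183). The galectin LGALS3 rose 3.56-fold (adjusted p = 0.00656), and the lysosomal proteases CTSB, CTSD and CTSZ rose 2.19-fold, 2.40-fold and 3.17-fold. SPP1, an integrin ligand known from the attachment of the pig conceptus, read 6.58, 5.78 and 5.32 against 7.38, 8.08 and 8.33 (difference 2.04, SE 0.72, adjusted p = 0.102). The groups did not overlap, and 2 of its 4 probes passed.

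Several of the steepest rises were in genes better known from the embryo, its yolk sac and liver or its placenta than from endometrium. SERPINA1, a plasma protease inhibitor counted in both the histotroph and the yolk sac list, read -4.26, -0.50 and -4.91 on day 18 and 0.66, 4.02 and 3.98 on day 24, a 69.0-fold rise (adjusted p = 0.0106). AFP, the fetal plasma protein, read -4.31, -0.87 and -5.68 against -0.39, 3.11 and 3.28, a 49.2-fold rise (adjusted p = 0.0265, and 0.0819 with the shared-state block). PPAG3, a pregnancy-associated glycoprotein of trophoblast with close family copies, read -3.54, -0.45 and -4.79 against 1.41, 3.26 and 3.09, a 45.6-fold rise (adjusted p = 0.0475, and 0.128 with the block). DPPA5, a gene of pluripotent cells, read 1.20, 4.32 and 0.53 against 6.41, 7.66 and 7.89, a 39.5-fold rise (adjusted p = 0.0186, and 0.0613 with the block). In all 4 genes day 18 replicate 2 was the highest of its day and day 24 replicate 1 the lowest of its day. SERPINA3-2, a protease inhibitor of the acute phase, read 1.41, 1.56 and -2.54 against 5.77, 5.77 and 6.48, a 58.1-fold rise (adjusted p = 0.0117), and SCGN, a calcium sensor of secretory cells, was at least 8.59-fold higher (adjusted p = 6.6e-05), being not well above background on any day 18 array.

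**Figure D2:**
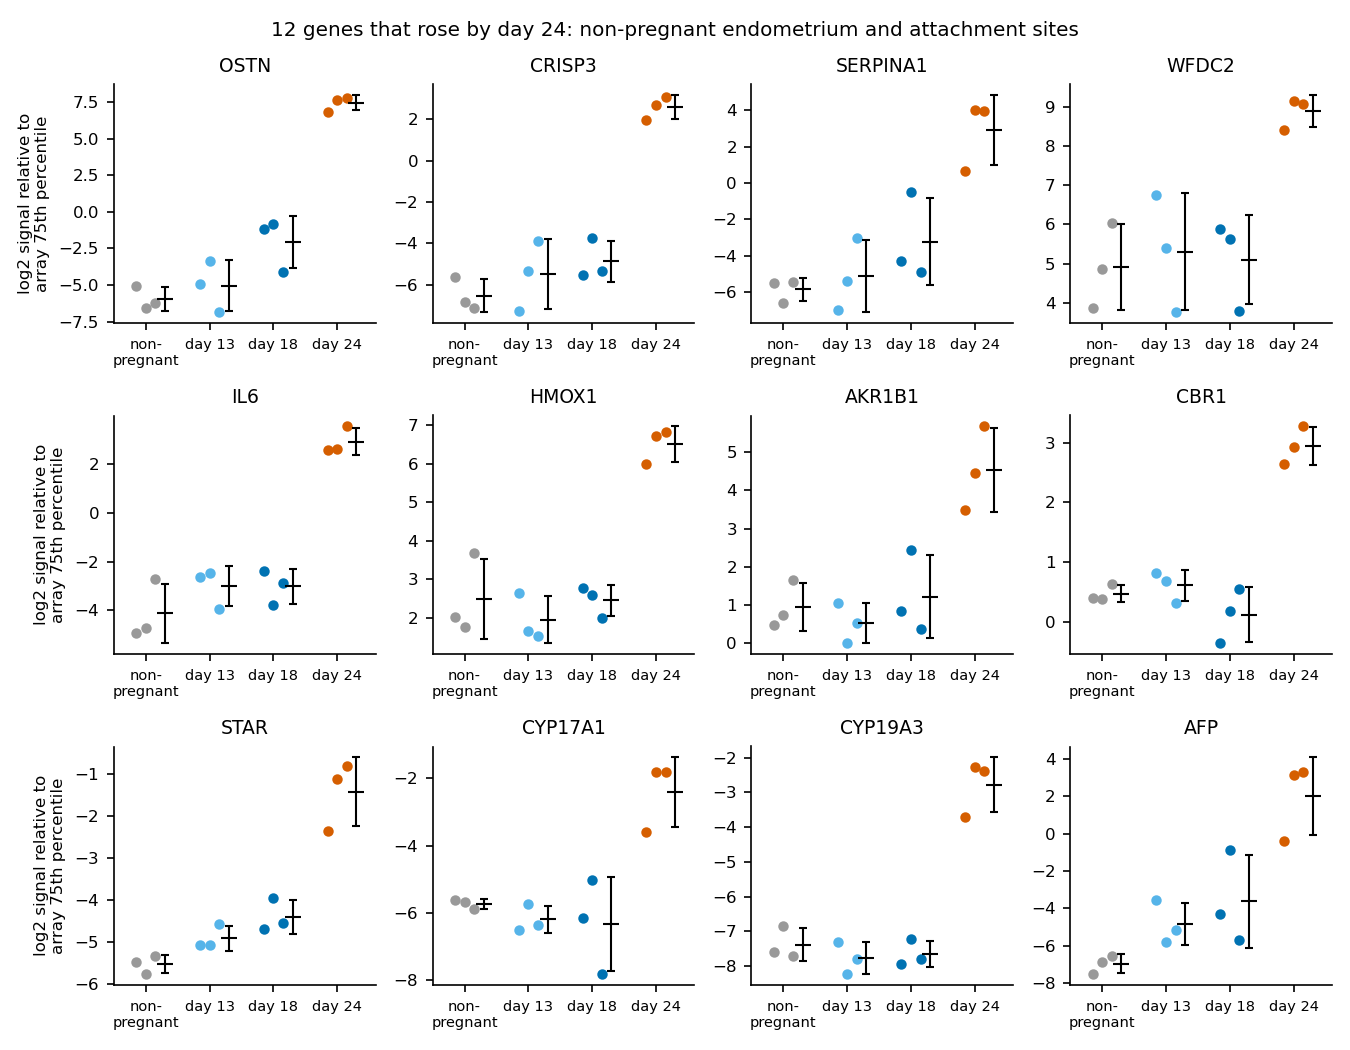
Log2 signal, with each array's 75th percentile set to 0, for 12 genes in non-pregnant endometrium and at attachment sites of days 13, 18 and 24. Points are single arrays (3 a group), and the black mark and bar give the group mean and SD. IL6 sits between 2.59 and 3.55 on day 24 and between -3.79 and -2.37 on day 18, and for AFP the day 18 array at -0.87 lies near the lowest day 24 array at -0.39.

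In the list of conceptus and trophoblast markers, 2 of 14 measured members rose and 0 fell, with a median of 0.96. Differences were above 0 in 12 and below 0 in 2, the lowest at -2.92, the value given above for IFNG. GATA3, a trophoblast transcription factor that lymphocytes also use, read 1.83, 1.80 and 0.45 against 3.08, 4.22 and 4.24, a 5.61-fold rise (adjusted p = 0.0225). The other member that rose was CYP19A3, at background on day 18 and counted again among the steroid genes below. PPAG3 is not in this list. PAG6, a pregnancy-associated glycoprotein that is, read 1.78, 5.48 and 2.11 against 6.29, 7.93 and 8.17 without passing (adjusted p = 0.221). The log2 of the list's summed signal was 5.36, 6.56 and 5.53 on day 18 and 7.13, 8.40 and 8.58 on day 24, with no overlap. Most of the day 24 sum came from PAG6, which did not pass. The summed signal ranged from 5.43 to 6.89 in non-pregnant endometrium and from 6.42 to 7.13 at day 24 inter-sites. The list's median level did overlap, at -0.82, 0.95 and -0.96 on day 18 and -0.71, 0.40 and 0.60 on day 24. Day 18 replicate 2 had the highest median. Among 10 embryonic blood, yolk sac and fetal liver markers, 3 rose and 0 fell (median 1.77), and 1 of the 3 passed with the shared-state block. All 3 calls were lost without day 24 replicate 2 or without day 24 replicate 3. Their summed signal was 4.92, 8.65 and 5.05 on day 18 and 8.60, 7.11 and 8.64 on day 24. HBE1, an embryonic globin, read 3.74, 8.60 and 4.46 against 8.52, 6.45 and 8.45 (adjusted p = 0.407), and ALB differed by -1.47 (SE 1.26). Day 18 replicate 2 thus had a summed signal at the day 24 level, most of it from HBE1, while for AFP and SERPINA1 it lay below every day 24 array. In bulk tissue a larger share of such cells and more RNA per cell cannot be told apart. The part that conceptus-derived RNA has in the rises of the secreted, steroid, prostaglandin and transport genes was not tested.

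**Figure D3:**
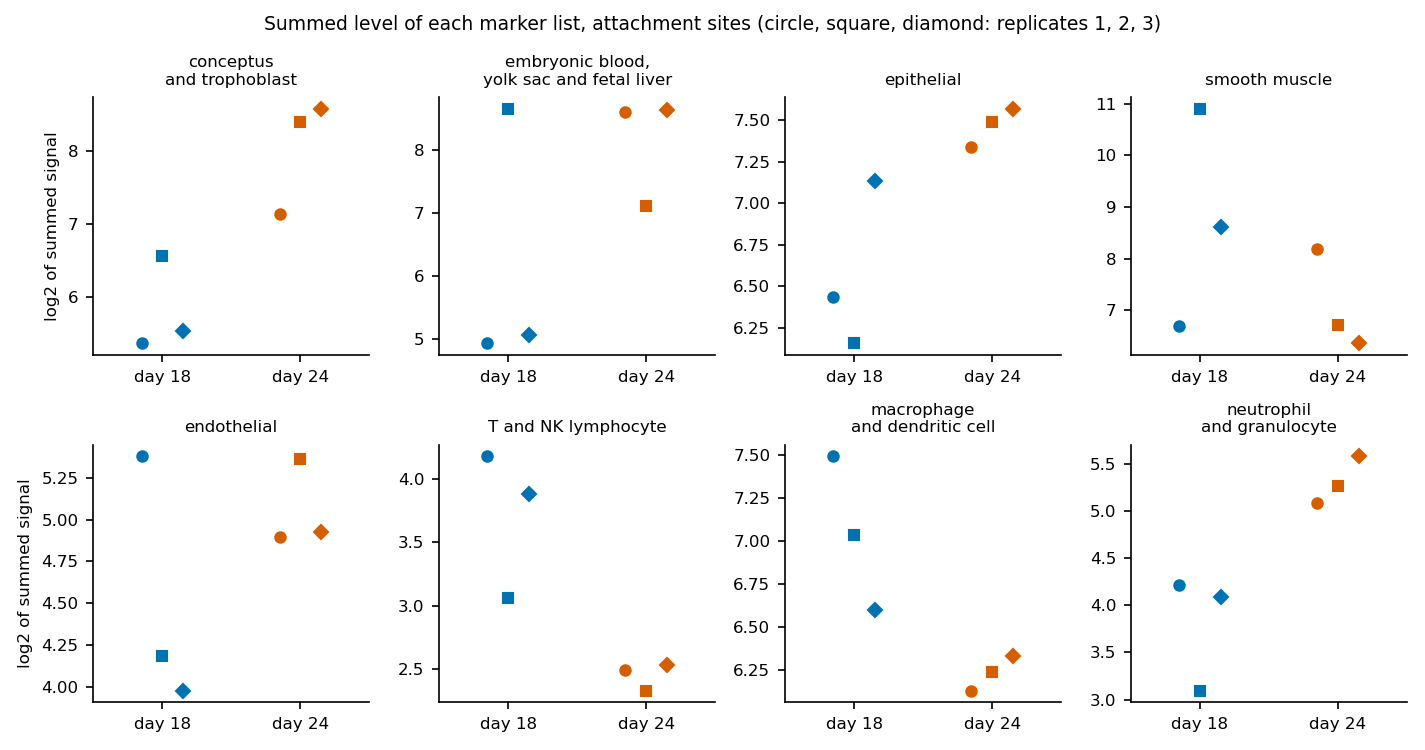
Log2 of the summed signal of 8 marker lists at attachment sites on day 18 and day 24, 1 point an array and a different symbol for each replicate number. Summed conceptus, epithelial and neutrophil signals are higher on all 3 day 24 arrays than on any day 18 array, and summed lymphocyte and macrophage signals lower. The day 24 conceptus sum is mostly PAG6, and that list's median level overlaps between the days. Smooth muscle markers spread from 6.70 to 10.89 on day 18.

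Steroid metabolism was next: 8 of 22 measured members rose and 0 fell, with a median of 0.94, and 5 passed with the shared-state block. Leaving out day 24 replicate 2 or 3 left 3 of the 22, and leaving out day 18 replicate 1 left 5. STAR, which brings cholesterol into mitochondria, read -4.71, -3.95 and -4.56 on day 18 and -2.36, -1.12 and -0.81 on day 24, a 7.86-fold rise (adjusted p = 0.0338, and 0.0921 with the block), and 3 of its 6 probes passed. CYP11A1, which makes pregnenolone from cholesterol, read -3.78, -3.51 and -4.09 against -2.31, -1.49 and -1.21, a 4.37-fold rise (adjusted p = 0.00707). HSD3B1, which makes progesterone from pregnenolone, rose 5.06-fold (adjusted p = 0.0114), and HSD17B1, which makes estradiol from estrone, rose 7.59-fold (adjusted p = 0.0144). CYP17A1, the enzyme that leads from progestins to androgens, was not well above background on any day 18 array, read -3.61, -1.81 and -1.80 on day 24 and was at least 8.20-fold higher (adjusted p = 0.00504). CYP19A3, one of the pig aromatases that make estrogens, was likewise at background on day 18, read -3.70, -2.28 and -2.38 on day 24 and was at least 6.32-fold higher (adjusted p = 0.000237). With normexp CYP19A3 differed by 1.44 and did not pass (adjusted p = 0.237). The aromatase copies are close in sequence, and the 2 probes of CYP19A1, the ovarian form, disagreed. The brighter differed by 0.12 (SE 0.32), while the other differed by 2.77 and passed. HSD11B2, which inactivates cortisol, rose 4.04-fold (adjusted p = 0.0403, and 0.118 with the block). The receptors ESR1 (-0.51, SE 0.41) and PGR (-0.33, SE 0.36) did not pass.

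Of 15 measured prostaglandin genes, 5 rose and 0 fell, with a median of 0.90. Leaving out day 24 replicate 2 or 3 left 2 of the 15, and leaving out day 18 replicate 1 or 3 left 3. AKR1B1, an aldose reductase with prostaglandin F synthase activity, read 0.86, 2.45 and 0.37 on day 18 and 3.49, 4.45 and 5.68 on day 24, a 9.93-fold rise (adjusted p = 0.0052). CBR1, which converts prostaglandin E to F, read -0.36, 0.17 and 0.54 against 2.64, 2.93 and 3.27, a 7.11-fold rise (adjusted p = 0.000511). PTGES, the synthase of prostaglandin E, rose 4.01-fold and PPARG, a nuclear receptor for prostaglandin derivatives, 3.48-fold (adjusted p = 0.0174 and 0.0339), and neither passed with the shared-state block (0.061 and 0.0581). AKR1C1, a reductase of steroids and prostaglandins and a member of both lists, read -3.19, -2.06 and 1.09 against 4.73, 4.67 and 5.92, a 90.2-fold rise (adjusted p = 0.0185, and 0.0624 with the block). LOC733635 lies next to it in the annotation, read within 0.26 of it on each of the 6 arrays, and the pair cannot be separated by these probes. PTGS2, the inducible cyclooxygenase, differed by 1.68 (SE 0.98, adjusted p = 0.314).

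HMOX1, heme oxygenase, was the only 1 of 12 immediate early and heat shock genes to pass, against 9.02% of all named genes. It read 2.78, 2.58 and 1.99 on day 18 and 5.99, 6.73 and 6.83 on day 24, a 16.8-fold rise (adjusted p = 0.00054). Of 36 lipid genes, 7 rose and 0 fell, with a median of 0.48. PNPLA3, a lipase of lipid droplets, rose 12.4-fold (adjusted p = 0.0179), FABP3, a fatty-acid carrier, 6.49-fold (0.0368), APOC3, an apolipoprotein that is also in the yolk sac list, 6.0-fold (0.0294), and SCD, the fatty-acid desaturase, 4.06-fold (0.00504). All 9 SCD probes passed. With the shared-state block 3 of the 36 passed, without day 24 replicate 2 or 3 only 1, and without day 18 replicate 3 or 1 it was 2 or 4.

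Extracellular matrix and protease genes had 5 rises and 0 falls among 20. HPSE, which cuts heparan sulfate, was not well above background on day 18, read -3.45, -2.53 and -1.81 on day 24 and was at least 6.96-fold higher (adjusted p = 0.00326). MMP1, an interstitial collagenase, was well above background on 1 of 3 day 18 arrays, read -4.84, -7.20 and -7.20 against -3.56, -2.60 and -2.85, and rose (log2 difference 3.41, SE 0.58, adjusted p = 0.0052). SERPINE2, a protease inhibitor, rose 6.37-fold and COL10A1, a short-chain collagen, 4.13-fold (adjusted p = 0.00608 and 0.0278), and COL10A1 did not pass with the block (0.0826). Among 18 adhesion genes 2 rose and 0 fell, against 7.53% of all named genes that rose. MUC20, a membrane mucin, rose 11.9-fold and BSG, a membrane glycoprotein of epithelium, 2.30-fold (adjusted p = 0.0106 and 0.00713 in limma).

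Transport genes had 2 rises among 21 members (median 0.74), a share near the 7.53% of all 2018 named genes that rose. Both were at background on day 18: the glucose carrier SLC2A2 was at least 9.23-fold higher and the arginine and lysine carrier SLC7A3 at least 4.77-fold higher (adjusted p = 0.00828 and 0.0246), and SLC7A3 did not pass with the shared-state block (0.065). AQP8, a water channel, was the only 1 of 19 ion and water genes to pass and read -0.39, -0.59 and -1.51 against 3.19, 3.89 and 4.96, a 28.8-fold rise (adjusted p = 0.00548). S100G, a calcium carrier, read -0.38, -1.03 and -0.64 against 1.75, 2.06 and 4.21 and did not pass (adjusted p = 0.0891). In complement and coagulation 4 of 31 rose and 0 fell (median 0.38). Among them PLG, the precursor of plasmin, was at least 15-fold higher, C7, of the membrane attack complex, rose 8.94-fold, and F3, tissue factor, 4.43-fold. With the block 1 of the 31 passed, C7 (adjusted p = 0.0372, against 0.0545 for PLG and 0.111 for F3). SPAM1, a hyaluronidase best known from sperm, was at background on day 18 and at least 8.88-fold higher on day 24 (adjusted p = 0.00351).

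In the remaining lists few members passed. Of all 2018 named genes 7.53% rose, and 1240 differences were above 0. Among 14 cell cycle genes, AURKA, a mitotic kinase, rose 3.35-fold just inside the threshold (adjusted p = 0.0563 with the shared-state block), while 12 of 14 differences were above 0 (median 1.10) and CDK1 and CCNB2 differed by 2.13 (SE 0.91) and 2.06 (SE 1.03). ODC1, the first enzyme of polyamine synthesis, rose 2.70-fold (adjusted p = 0.014), while ARG1 and GATM did not pass (differences 1.84 and -1.66). CS, citrate synthase, and PGK1, a glycolytic enzyme, rose 1.79-fold and 1.58-fold among 23 energy genes, and neither passed with the block (adjusted p = 0.0545 and 0.116). By its brightest probe, no member passed in limma among 22 angiogenesis genes (median 0.54, 4 at an unadjusted p under 0.05). ADM, a vasodilator peptide, differed by 1.80 and VEGFA, the main endothelial growth factor, by 1.62, and 1 of the 2 VEGFA probes passed. No member passed among 11 WNT, Hedgehog, Notch and homeobox genes (median -0.10, SFRP4 -1.66, KLF9 -0.38, 1 at an unadjusted p under 0.05) or 29 ribosomal protein genes (median -0.07, from -0.32 for RPL23 to 0.35 for RPS26, 0 at an unadjusted p under 0.05). BMP2 had the next largest growth-factor difference (1.83, SE 0.59, adjusted p = 0.077).

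**Figure D4:**
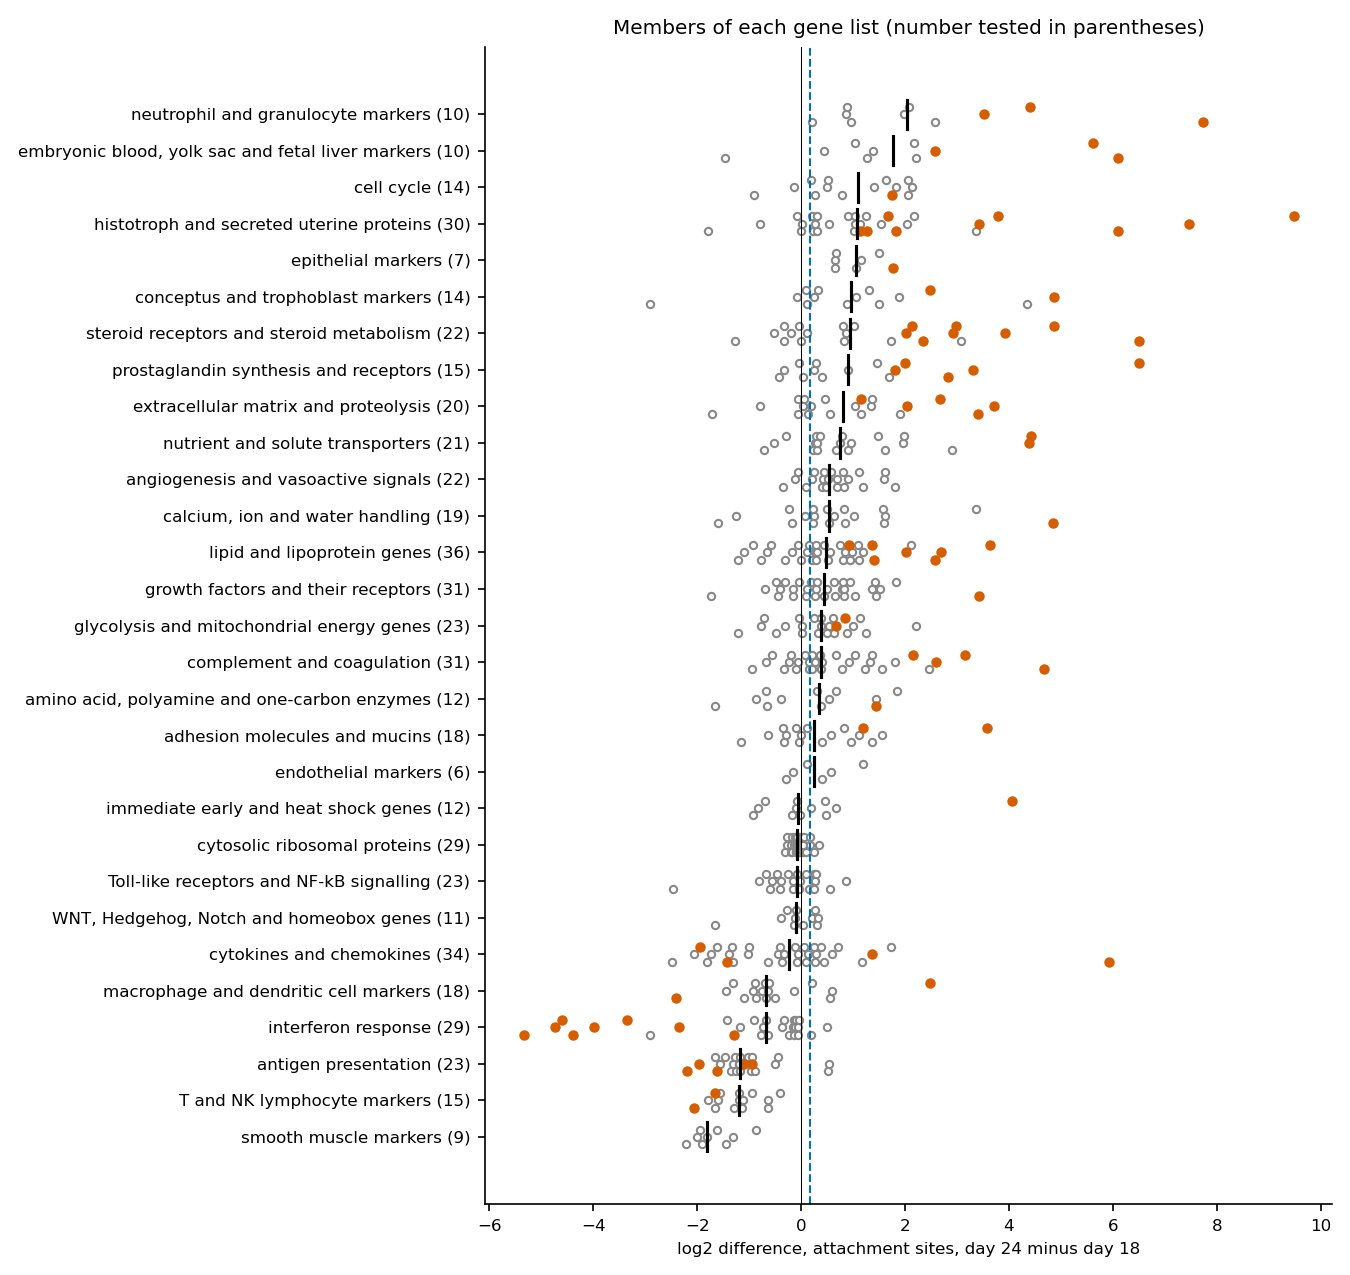
Log2 difference (day 24 minus day 18 at attachment sites) of each measured member of the 29 lists with at least 5 members. Filled points passed the test, open points did not, black ticks are list medians and the dashed line is the median of all 2018 genes, 0.17. Interferon members reach down to -5.34 (CXCL10) and histotroph members up to 9.48 (OSTN).

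Immune cell markers split by type. Of 15 T and NK lymphocyte markers, all differences were below 0 (median -1.19) and 2 fell: the granzymes GZMB, at 1.66, 1.67 and 2.71 against 0.41, 0.19 and 0.45 (3.18-fold, adjusted p = 0.0082), and GZMA, 4.19-fold lower (adjusted p = 0.0338) and not well above background on 1 day 24 array. With normexp background correction GZMA differed by 0.00. CD3E and CD8A differed by -1.14 (SE 0.53) and -1.66 (SE 0.60) and did not pass. The list's summed signal ranged from 3.06 to 4.18 on day 18 and from 2.33 to 2.53 on day 24, and its part in the fall of the interferon and antigen-presentation genes was not tested. Among 18 macrophage and dendritic cell markers CD180, a Toll-like receptor homologue, fell 5.32-fold (adjusted p = 0.027, and 0.109 with the shared-state block) and CD163, the scavenger receptor for hemoglobin, read -0.28, 0.99 and 0.22 against 2.72, 2.48 and 3.18, a 5.59-fold rise (adjusted p = 0.0158). Summed macrophage signal ranged from 6.60 to 7.49 on day 18 and from 6.13 to 6.33 on day 24. All 10 neutrophil and granulocyte differences were above 0 (median 2.03), and 3 rose. BPI, an antibacterial granule protein, was not well above background on day 18, read -0.30, 1.61 and 2.29 on day 24 and was at least 100-fold higher (adjusted p = 0.00326). PGLYRP1, which binds bacterial peptidoglycan, read -3.74, -0.22 and -1.98 against 1.74, 1.72 and 3.80, and S100A12, a calgranulin, -1.54, -1.58 and -2.54 against 1.39, 2.31 and 1.22 (adjusted p = 0.0338 and 0.0493). The latter 2 did not pass with the block (0.093 and 0.0948), and the granule protein LTF differed by 0.21.

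The labelled tissue was checked against other markers of the uterus. All 7 epithelial markers were well above background on every array, all differences were above 0 (median 1.05), and CDH1, the epithelial cadherin, rose 3.40-fold (adjusted p = 0.0293, and 0.0744 with the shared-state block). Summed epithelial signal was 6.44, 6.16 and 7.13 on day 18 and 7.34, 7.49 and 7.57 on day 24, without overlap. The part of this rise in other differences was not tested. The stromal gene DCN differed by 0.19 (SE 0.30), and THY1 differed by 2.63 (SE 0.80, adjusted p = 0.062 in limma). None of 6 endothelial markers passed in limma (1 at an unadjusted p under 0.05; CDH5 0.57 and ENG 1.19), nor did SPAG6, the single ciliated-cell marker (0.25), CD40, the single B cell marker (-0.62), or the platelet genes GP9 and ITGA2B (0.31 and 0.28). None of 9 smooth muscle markers passed in limma (2 at an unadjusted p under 0.05) although all 9 differences were below 0 (median -1.81). CNN1, a contractile protein, read 3.99, 8.57 and 6.19 on day 18 and 5.33, 4.10 and 3.29 on day 24, and PLN, a regulator of the muscle calcium pump, 1.30, 5.17 and 2.63 against 1.31, 1.06 and 0.08. The summed smooth muscle signal was 6.70, 10.89 and 8.62 on day 18 and 8.19, 6.71 and 6.36 on day 24, so day 18 replicate 2 had the most. Its part in other differences was not tested.

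Away from list membership, DDO, which oxidises D-aspartate, read -0.18, 1.32 and 2.76 on day 18 and -0.69, -1.0 and -1.0 on day 24, a 4.58-fold fall (adjusted p = 0.0273). PROX1, a transcription factor of lymphatic endothelium and other tissues, fell 4.31-fold (adjusted p = 0.0468, and 0.118 with the block) and was not well above background on 1 day 24 array. SNCAIP, a partner of alpha-synuclein, was not well above background on day 24 and at least 1.45-fold lower (adjusted p = 0.0456), while with normexp it differed by 0.44.

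The inter-sites of the same days gave a comparison that shares no array with the one above, although the same sows may have supplied both. One inter-site library, day 24 replicate 3, stood apart at the on-off probes. The number follows the scanner files: in the authors' deposited table its values are those of the column for replicate 2 (r = 0.997 across probes), and the reverse. The library matched the other day 24 libraries at 22.2% to 25.9% of the 27 and replicate 3 of the non-pregnant group at 100%. Across tested probes it correlated with that non-pregnant array at r = 0.988, and with the other day 24 inter-site arrays at 0.942. At inter-sites 3 of 2018 named genes passed (0.149%), and 8 passed without that library. MMP1 was the 1 gene of the 3 that was also among the 182, and it was not well above background on any day 18 inter-site array. Of the 182 genes, 171 had the same sign at inter-sites (94.0%), against 1497 of all 2018 (74.2%), and without that library the shares were 95.6% and 77.5%. CXCL10 differed by -2.43 at inter-sites (SE 0.92, adjusted p = 0.242) and by -5.34 at attachment sites, GBP1 by -2.08 and -4.39, and UBD by -2.26 and -3.35. IL6 differed by 1.61 and 5.92, HMOX1 by 2.36 and 4.07, and CRISP3 by 1.05 and 7.46. Without that library the inter-site differences were -2.58 for CXCL10, -2.40 for GBP1 and -2.72 for UBD. They were 2.09 for IL6, 2.53 for HMOX1 and 1.83 for CRISP3. OSTN differed by 3.64 at inter-sites, and by 7.0 there without day 24 replicate 3, against 9.48 at attachment sites.

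**Figure D5:**
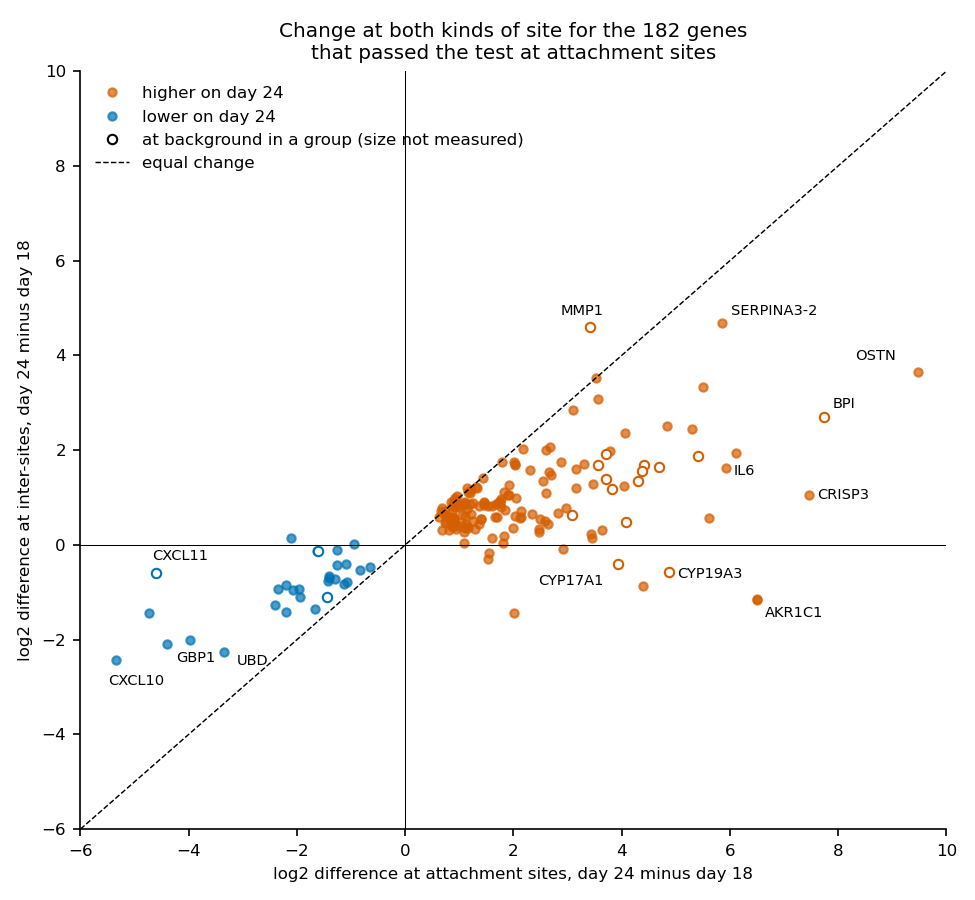
Log2 difference from day 18 to day 24 at inter-sites (vertical) against that at attachment sites (horizontal) for the 182 genes that passed the test at attachment sites. Points on the dashed line would have changed equally. The 18 open points had a group of arrays with no signal well above background, so their sizes are not measured. CXCL10 lies at -2.43 against -5.34, and IL6 at 1.61 against 5.92.

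The difference between the 2 changes was itself tested, and 3 of 30091 probes passed (0.00997%), with 964 at an unadjusted p under 0.05. CYP19A3 passed with a larger rise at attachment sites (adjusted p = 0.0233). It was well above background on the 3 day 24 attachment arrays and on no other array of the study, so the size of that difference is not measured. A second probe of IL6 passed as well, with a difference of 3.86 (SE 0.56, adjusted p = 0.0308), while the brightest IL6 probe, at 4.31 (SE 0.87), had an adjusted p of 0.312. The third was an expressed-sequence probe with no gene symbol (adjusted p = 0.0233), also at background on all day 18 attachment arrays. For the other genes named above, a larger difference at attachment sites than at inter-sites was not shown. The fit treated attachment and inter-site arrays as independent, although the same sows may have supplied both. Without day 24 inter-site replicate 3, 0 probes passed this test in limma, with 637 at an unadjusted p under 0.05, and CYP19A3 had an adjusted p of 0.0682.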

How the data were processed

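Per the file headers, spot intensity came from Agilent Feature Extraction 10.7.3.1 (10.7 per the submitters' processing notes), which subtracted background and detrended the processed intensity within each array. The authors' deposited table of log2 values was quantile normalised and served as an alternative. Flags per the file headers removed outlier spots. Control spots were left out and repeat spots averaged. Each log2 processed intensity minus the array's 75th percentile was fitted with limma 3.58.1 (R 4.3.3) as 7 group means over all 21 arrays, without a replicate block. A probe was tested if any group had it flagged well above background on each of its 3 arrays. Simulated data with independent noise between arrays were then put through the same fit. Log2 differences of 1, 2, 3 and 4 passed at 26%, 62%, 94% and 94% of the probes given them. Arrays that share noise, the concern of the shared-state block, were not simulated.

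Of 5779 probes with a RefSeq accession, 5461 matched a symbol. Named genes were the 12 largest rises and falls, up to 4 of each list by size of difference (the top 2 where fewer than 2 passed), the 4 largest bounds each way and genes with an interaction call. Some genes that entered the counts are not reported here by name. Members and the 33 lists were chosen with earlier results of these data known. The mean spot signal was not used; normexp took the median spot and background intensity, with an offset of 50. Deviations of same-numbered day 18 and day 24 attachment arrays correlated at -0.047, 0.007 and -0.026. Sows of the 2 days were different animals, so these values could not show a pairing. Whether same-numbered attachment and inter-site arrays of a day share a sow was not checked.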

Additional observations from a re-analysis of the deposited data

Results flagged for a closer look

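The change from day 18 to day 24 differed between attachment sites and inter-sites, by a test of the difference itself, at 3 probes. For CYP19A3 the attachment-site change exceeded the inter-site change by 5.43 (log2), for an expressed-sequence probe without a symbol by 4.97, and for a second IL6 probe by 3.86. The first 2 sizes are differences of fitted signals and not measured changes, since neither probe was well above background on any day 18 attachment array. The IL6 probe was well above background on 2 of 3 day 18 arrays at attachment sites and 2 of 3 at inter-sites, so its day 18 level was near background too. The unnamed probe read -7.45, -6.10 and -6.87 at attachment sites on day 18 and -2.70, -2.56 and -1.62 on day 24. The IL6 probe read -4.42, -5.06 and -4.49 against 0.42, -0.10 and 1.11. Groups of 3 arrays were not screened for outlying samples.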

How the results depend on the processing

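The count of 1698 probes changed by more than 1.5 times with normexp background correction (221), the 6 arrays alone (491), array quality weights (3330), a slide block (393), the shared-state block (558) and replicates 1 and 2 averaged (496). Leaving out 1 array gave 261 to 1629. With the fit on only these 6 arrays, normexp, the slide block, the shared-state block or the averaging, a larger share of the probes that passed was higher on day 24 (79.0% to 82.1%) than in the reported fit (68.9%). The share was lower with array quality weights (60.2%), quantile normalization (63.9%) and median scaling (64.7%). The replicate block gave 1790 probes, and the numbers do not pair sows of different days. The cause of these shifts was not tested. Normexp turned the sign of GZMA (0.0049) and SNCAIP (0.44) among 68 named genes that passed, and 32 others kept their sign without passing. The interaction count of 3 became 0 with normexp, the all-array filter, pregnant sows only, the mean-variance trend or the slide block, 1 with the replicate block and 7 with the shared-state block, and leaving out 1 array gave 0 to 18. No depth exists for arrays, and 3 arrays a group limit the precision. Signals near background, such as CYP17A1 or SCGN on day 18, bound a fold only from below.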

Other observations

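Outside the lists, a number of genes of the lysosome, the acidic compartment that digests proteins, sugars and nucleic acids, were among the 152 named genes that rose. They were picked out after their values were seen, so no test of the group was made. HEXA, a subunit of beta-hexosaminidase, rose 3.37-fold (adjusted p = 0.000353 in limma). It read 1.59, 1.35 and 1.49 on day 18 and 2.98, 3.34 and 3.36 on day 24. GRN, the precursor of granulins, read 5.96, 5.91 and 6.38 against 8.0, 9.05 and 9.11, a 6.21-fold rise (adjusted p = 0.000693). The sialidase NEU1 rose 3.28-fold, the acid nuclease DNASE2 3.02-fold, and GUSB, a glucuronidase, 3.72-fold. ATP6V1A, a subunit of the proton pump that acidifies the lysosome, rose 2.75-fold (adjusted p = 0.00424). With the shared-state block GUSB did not pass (adjusted p = 0.0584), while the other 5 did. At inter-sites these 6 genes differed by 0.15 (DNASE2) to 1.06 (GUSB).

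SOCS3, a feedback inhibitor of IL6-family cytokine signals, was also picked out after its values were seen. It read -2.80, -4.68 and -4.95 on day 18 and -1.83, -2.44 and -2.43 on day 24, a 3.76-fold rise (adjusted p = 0.0174 in limma, and 0.0526 with the shared-state block). The groups did not overlap, and day 18 replicate 1 lay near the day 24 arrays.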
